A study of Rattus norvegicus with 16 samples.

Results

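The epithelial genes described here are 3 uroplakins (Upk1a, Upk2 and Upk3a), 3 keratins (Krt5, Krt15 and Krt7), the adhesion molecule Epcam and the neuropeptide gene Calcb, 8 of the 15168 genes that the array names, and they were taken by matching the array's RefSeq accessions to these symbols. Each was measured by 1 probe. They were chosen for their levels on these same arrays, so those levels are given as a description. The RNA came from epididymal white adipose tissue (EWAT), the fat pad along the epididymis, of male rats that were killed, without fasting, at an age of 30 days. All 16 animals were pups of dams on a high-fat diet through pregnancy and lactation, and they ate that diet themselves after weaning. The dams of the 8 HF animals took low-fat condensed milk each day as a vehicle, and those of the 8 HFT animals took GSPE, an extract of grape seed procyanidins, at a dose of 25 mg per kg in the same milk. The labels do not say which animals were littermates, and the p-values below treat all of them as independent. There was 1 array with 1 colour for each animal, and animals are named by group and number as in the labels.

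The urothelium lines the urinary tract from the renal pelvis to the bladder. Its surface umbrella cells carry rigid plaques built from uroplakins, in which the tetraspanin Upk1a pairs with Upk2 and another tetraspanin, Upk1b, pairs with Upk3a. The layers beneath rest on a basal sheet marked by keratins such as Krt5, Krt14 and Krt17, and epithelia of many ducts share that sheet. None of these cell layers is a part of adipose tissue. Of the other members, Krt7 is a keratin of simple and luminal epithelia that mesothelium, the lining of the fat pad, also makes, Epcam joins epithelial cells of nearly every organ, and Calcb encodes a calcitonin gene-related peptide known from sensory neurons and not from urothelium.

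Promoters of 4 of the 8 genes, Upk1a, Upk3a, Krt5 and Epcam, were found in the RefSeq sequences of the rat build GRCr8. The 250 bases before the start site are shown for 1 luminal gene, 1 basal gene and the general epithelial gene, since these followed different sets of arrays. Capitals mark matches to the GC box GGGCGG and to the AP-1 motif TGANTCA on either strand. The Upk3a window (chr7:118014540-118014789, plus strand) lies inside the annotated span of its gene, the Krt5 window (chr7:134730570-134730819, minus strand) lies directly before its gene, and the Epcam window is at chr6:12649679-12649928 on the minus strand.
Upk3a: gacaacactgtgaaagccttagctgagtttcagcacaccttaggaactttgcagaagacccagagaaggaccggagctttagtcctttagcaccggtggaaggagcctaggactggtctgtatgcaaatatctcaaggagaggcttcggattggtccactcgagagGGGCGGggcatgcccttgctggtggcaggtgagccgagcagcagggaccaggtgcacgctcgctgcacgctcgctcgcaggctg
Krt5: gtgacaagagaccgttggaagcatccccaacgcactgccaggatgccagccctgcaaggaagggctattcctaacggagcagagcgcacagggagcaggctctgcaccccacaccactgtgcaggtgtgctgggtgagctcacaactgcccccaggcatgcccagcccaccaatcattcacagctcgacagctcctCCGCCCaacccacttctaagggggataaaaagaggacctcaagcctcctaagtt
Epcam: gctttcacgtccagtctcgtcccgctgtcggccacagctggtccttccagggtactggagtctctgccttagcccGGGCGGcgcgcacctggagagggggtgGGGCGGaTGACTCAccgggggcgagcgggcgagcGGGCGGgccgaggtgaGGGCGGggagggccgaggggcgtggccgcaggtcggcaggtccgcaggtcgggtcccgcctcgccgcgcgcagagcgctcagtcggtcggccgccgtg
The GC box stood in 3 of the 4 windows, once in Upk3a, once in Krt5, 4 times in Epcam and not in the luminal gene Upk1a, and in 30.5% of all 33469 promoter windows of that length. The AP-1 motif stood only in the Epcam window among the 4 searched, and in 6.34% of all windows. The Epcam window had a GC content of 75.6%, against 58.0% for Upk3a and 59.2% for Krt5. Neither the GATA motif AGATAA, held by 10.3% of all windows, nor the TATA box TATAAA, held by 12.9%, was spelled in any of the 4 windows. These matches describe letters and not bound sites. The Upk1a window, like that of Upk3a, lies inside the annotated span of its gene, so motifs before the gene may have been missed.

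Levels are log2 of the processed signal minus the array's 75th percentile, so 0 is the brightness of that percentile and a step of 1 is a factor of 2. A probe's height is its level on an array minus its own median over the 16 arrays. Levels of different probes are not set against each other, because probes differ in brightness for the same amount of RNA. The 75th percentile of the raw signal ran from 753 to 1366 over the arrays, 68.3% to 73.5% of probes lay well above background, and no spot was saturated. The tissue label held on all 16 arrays by adipocyte markers, where 10 of 10 matched genes were well above background and Adipoq, the adiponectin gene, stayed between -0.57 and 0.35 of its own median. Lep, the leptin gene, ran from -1.28 (HF 35) to 0.27 (HFT 26) around its median.

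The 8 genes did not share 1 pattern over the arrays. The uroplakins were high on 3 arrays and low on the other 13. The 3 arrays were HF 35, HFT 22 and HFT 24, so both groups held them. Upk3a, whose protein pairs with Upk1b at the umbrella cell surface, had in HF a lowest level of -6.91, a median of -6.26 and a highest level of 4.69, and in HFT a lowest level of -7.85, a median of -6.59 and a highest level of 4.69. A single HF array and 2 HFT arrays made up the high values, and everything else in either group lay in a narrow low band. The rule that picks these arrays, Upk3a above 0, had HFT 22 just inside it at 2.95 and HF 8 just outside it at -5.98, a gap of 8.93 log2 units. Upk3a was well above background on 5 HF and 3 HFT arrays, which includes low arrays such as HF 9 at -6.11 and HFT 36 at -6.06. The RNA came from whole tissue, in which fewer cells of a type and less RNA per cell cannot be told apart.

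Upk1a, a tetraspanin of the plaque, stood at 4.17 on HF 35, 2.66 on HFT 22 and 4.29 on HFT 24. Elsewhere, on 13 arrays, it lay between -4.76 (HFT 25) and -3.71 (HF 8), so no array fell between the bands. It was well above background on all 16 arrays, so its low values are signal over background. Whether that low signal came from Upk1a RNA was not tested. Upk2, its partner in the plaque, stood at 2.72, 1.78 and 3.29 on HF 35, HFT 22 and HFT 24. It was not well above background on the other 13 arrays, where its signal gave levels of -8.87 to -8.30. Set against the mean detection bound of those 13 arrays, Upk2 was at least 697-fold higher on HF 35, at least 365-fold higher on HFT 22 and at least 1041-fold higher on HFT 24. Such a bound takes, on each dim array, the lowest signal among probes well above background. The filter used for the treatment comparison (4 or more arrays of HF, or of HFT, with the probe well above background) kept 7 of the 8 members and dropped Upk2.

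Upk1b, the tetraspanin that pairs with Upk3a, is no member, and it behaved differently. It was well above background on all 16 arrays and stood only 2.24, 2.89 and 2.82 above its median on HFT 22, HFT 24 and HF 35, with HF 13 next at 1.61 and HF 8 lowest at -2.69. Mesothelium is known to make Upk1b. Upk3bl1, another gene of the family, ranged from -1.17 to 0.63 around its median and was at -0.33 on HF 35. A probe for Upk3b was not matched.

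**Figure D1:**
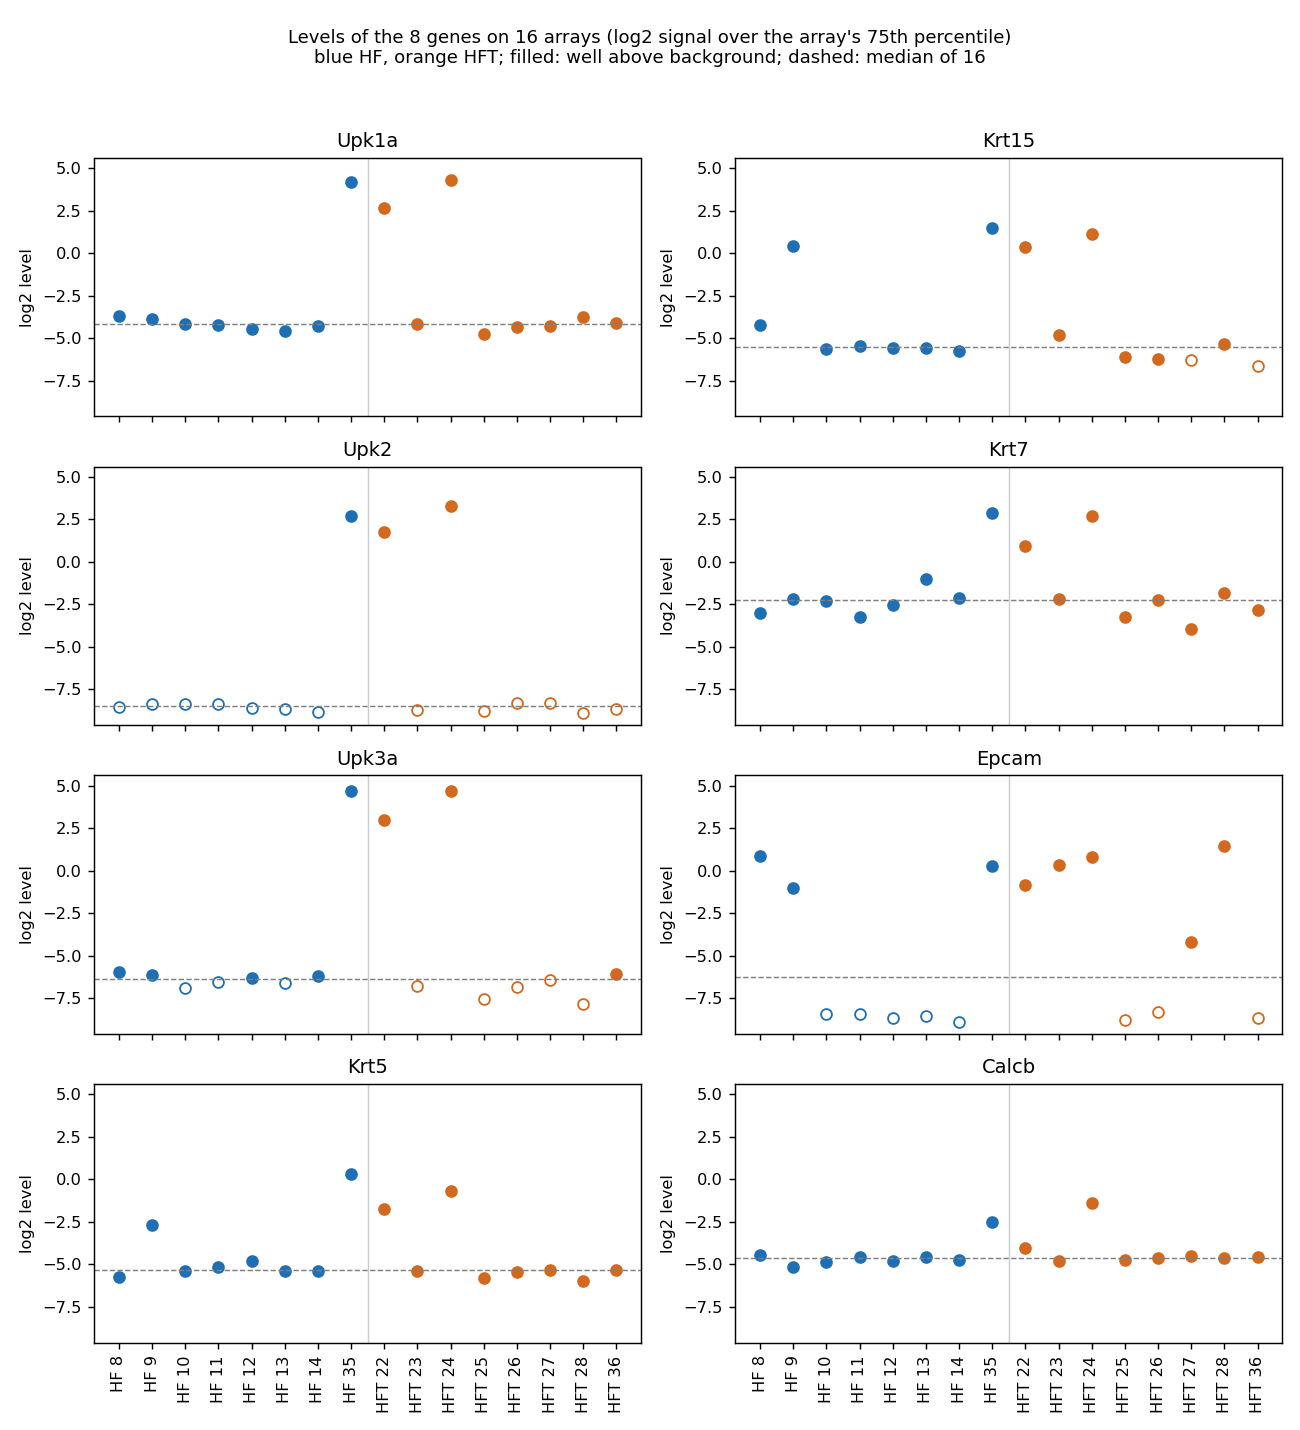
Levels of the 8 genes on each of the 16 arrays, 1 animal each, in log2 units over the array's 75th percentile, with HF in blue and HFT in orange, filled points well above background and a dashed line at the median. Upk1a, Upk2 and Upk3a stand high on HF 35, HFT 22 and HFT 24 alone, Krt15 also on HF 9, and Epcam on 7 arrays. Krt5 on HF 9 lies 2.67 above its median, below its level on those 3 arrays.

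The basal keratins were high on the same 3 arrays and, below or within their range, on HF 9, where the uroplakins stood at their low levels. Krt15, a keratin of basal and stem-like cells of stratified epithelia, stood at 1.48 on HF 35, 0.36 on HFT 22, 1.11 on HFT 24 and 0.43 on HF 9. HF 9 thus lay within the range of the uroplakin arrays, 0.08 above the lowest of them. The next highest array was HF 8 at -4.21, and the lowest was HFT 36 at -6.63, where Krt15 was not well above background, as on HFT 27. Krt5, the main type II keratin of basal cells, stood at 0.30 on HF 35, -1.72 on HFT 22, -0.70 on HFT 24 and -2.69 on HF 9. Its HF 9 level lay 0.96 below the lowest uroplakin array and 2.10 above the next array, HF 12 at -4.79. Over the other 12 arrays Krt5 reached down only to -5.99 (HFT 28), and it was well above background on all 16.

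Of the 16 other matched genes of the basal and intermediate list, 4 had a height over 3 on each uroplakin array (Aqp3, Krt17, Dapl1 and Krt14) and 1, Krt17, on HF 9. The median height of the list was 0.37 on HF 35, 0.73 on HFT 22, 0.28 on HFT 24 and 0.22 on HF 9. Tp63, the transcription factor of basal cells, named here after its values were seen, stayed between -0.10 and 0.17 of its median on these 4 arrays, and Krt4, a keratin of stratified epithelia named likewise, between -0.67 and 0.79.

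Krt14, which forms filaments with Krt5, stood 5.12, 3.21 and 4.03 above its median on HF 35, HFT 22 and HFT 24, and 2.66 above it on HF 9, and was well above background on all 16 arrays. Its height on the array next in order, HFT 25, was 0.89. Krt17, a keratin of basal cells and of injured epithelium, was not well above background on 11 arrays, and against their mean detection bound it was at least 35.5-fold higher on HF 35, 9.13-fold on HFT 22, 16.8-fold on HFT 24 and 8.32-fold on HF 9. Dapl1, an epithelial gene of the same list, was high on further arrays: it was at least 34.4-fold above the bound of its 8 dim arrays on HF 35 and 3.89-fold on HF 9, but also 33.1-fold on HFT 28 and 12.4-fold on HF 8. Aqp3, a glycerol and water channel, was well above background on the 3 uroplakin arrays alone, where it was at least 572-fold (HF 35), 191-fold (HFT 22) and 458-fold (HFT 24) higher than the bound of the other 13, HF 9 included.

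On HF 9 the uroplakins and Krt15 parted. The heights of Upk1a, Upk2 and Upk3a were 0.32, 0.09 and 0.26 there, Upk1a and Upk3a being well above background at these low levels, while the height of Krt15 was 5.96 and that of Krt5 was 2.67. Krt20, the keratin of umbrella cells, was not well above background on HF 9, and against the bound of its 12 dim arrays it was at least 57.5-fold higher on HF 35, 19.8-fold on HFT 22 and 81.6-fold on HFT 24. Outside those 3 arrays it was well above background only on HFT 26, at a level of -5.90.

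By the count of genes with a height over 3, the layer lists did not part in that way. Of the 14 other matched luminal genes, 7 had a height over 3 on HF 35, 5 on HFT 22, 9 on HFT 24 and 4 on HF 9 (Cldn4, Gata3, Tmprss2 and Cldn8), against 1 of 16 basal genes on HF 9. HF 9 was not alone in this. On HFT 28, HF 8 and HFT 23, also low in the uroplakins, 5, 3 and 2 luminal genes passed, against 1 basal gene on each. By the median they differed more. The median height of the luminal list was 3.03, 2.53 and 3.62 on HF 35, HFT 22 and HFT 24, 0.62 on HF 9 and 1.41 on HFT 28. The basal median was low throughout, at 0.28 to 0.73 on the uroplakin arrays and 0.22 on HF 9. Gata3, a transcription factor of urothelium and other epithelia, had a level of -1.94 on HF 9, against -2.01 on HF 35, -3.31 on HFT 22 and -1.86 on HFT 24. Cldn4, a tight junction protein, had levels of -1.95 on HF 9 and 0.39 on HF 35, and Tmprss2, a membrane serine protease, of -1.88 and 0.73. Both were also raised outside these 4 arrays, with Cldn4 at -3.06 on HFT 28 and -3.26 on HF 8, and Tmprss2 at -0.53 and -1.22 there.

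**Figure D2:**
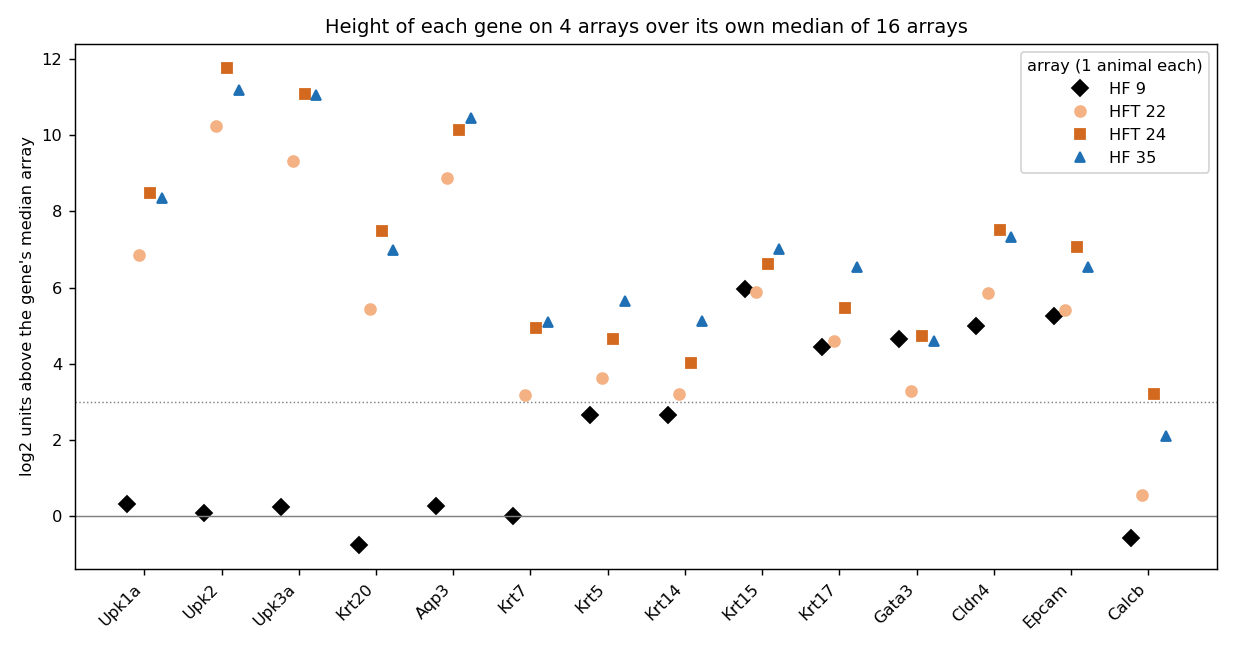
Height of 14 genes above their own median of 16 arrays, in log2 units, on HF 9 (black diamonds), HFT 22, HFT 24 and HF 35, with 1 animal per array and a dotted line at 3. For Upk2, Krt20, Aqp3, Krt17 and Cldn4 the median array is not well above background, so the height is counted from background signal, and for Upk3a, Epcam and Gata3 8 of the 16 arrays are dim. On HF 9 the uroplakins, Krt20, Aqp3 and Krt7 lie between -0.74 and 0.32, while Krt15, Krt17, Gata3, Cldn4 and Epcam lie between 4.45 and 5.96.

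A height over 3 was used to count high arrays. It was passed by Upk1a, Upk2, Upk3a, Krt5 and Krt7 on 3 arrays each, by Krt15 on 4, by Epcam on 7 and by Calcb on 1. With normexp background correction and quantile scaling, Krt5 passed on 1 array and Calcb on 0. Where most arrays are dim, as for Upk2, the height is counted from background signal. On HF 35 and HFT 22 it was passed by 7 of the 8 members, all but Calcb, and on HFT 24 by all 8. Of all 21809 kept probes, 0.669% passed on HF 35, 0.284% on HFT 22 and 0.835% on HFT 24. On HF 9, 2 members passed (Krt15 and Epcam) where 0.825% of kept probes did. Only Epcam passed on HF 8 (1.52% of kept probes), HFT 23 (1.13%) and HFT 28 (1.8%). No member passed on the other 9 arrays, where the share of kept probes was 0.399% on HF 10, 0.284% on HFT 36, 0.055% on HFT 27, 0.0321% on HFT 26, 0.0183% on HF 13, 0.0138% on HF 11 and HFT 25, 0.00917% on HF 14 and 0.0% on HF 12. On all 3 uroplakin arrays at once, 60 kept probes passed, or 0.275%, and 239 probes, or 1.1%, were higher on each of those arrays than on every other array. The members were chosen for these levels, so nothing is read from their share.

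Named genes with a kept probe that passed on all 3 uroplakin arrays numbered 37 of 11591. Of these, 15 also passed on HF 9, 10 had a height under 1 there, and 12 lay between. Upk1a, Upk3a and Krt7 belonged to the genes under 1, Krt15 and Epcam to those that also passed, and Krt5 to those between. With dim probes counted too, 60 of 15162 genes passed on the 3 arrays, of which 21 also passed on HF 9 and 21 had a height under 1 there.

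HF 9 differed from the uroplakin arrays in genes of other tissues as well. Of 13 matched smooth muscle genes, 9 passed the height of 3 on HF 9, against 1 on HF 35, 1 on HFT 24 and 0 on HFT 22. Actg2, the enteric smooth muscle actin, was 6.77 above its median on HF 9 and 4.08, 2.42 and 3.84 on HF 35, HFT 22 and HFT 24, and Cnn1, calponin of the same muscle, was 6.60 on HF 9 and 2.86, 1.86 and 2.45 on those arrays. The summed level of a list is the log2 of the sum of its genes' unlogged levels, so its brightest probes weigh most. For the smooth muscle list the summed level was 9.15 on HF 9. It ran from 4.31 to 9.15 in HF with a median of 4.80, and from 4.22 to 6.43 in HFT with a median of 4.53, with HF 35 at 6.58 and HFT 24 at 6.43. Of the 13 genes, 11 were well above background on every array.

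Some duct markers were high on HF 9 too, and some on HF 8, HFT 23 and HFT 28, though not the same ones on each. They were uneven on the uroplakin arrays. Ces5a, a carboxylesterase of the epididymal duct, was not well above background on 7 arrays, HF 35 among them, and was at least 1395-fold above their bound on HF 9 and 81.8-fold on HFT 24, but also 404-fold on HF 8, 166-fold on HFT 23 and 461-fold on HFT 28. Aqp2, a water channel of the kidney collecting duct and of the vas deferens, had a height of 10.1 on HF 9 and 7.07 on HFT 24. Its height was 4.29 on HFT 23 and 2.98 on HF 8, but -0.16 on HFT 28, -0.40 on HF 35 and -0.19 on HFT 22. Of 11 matched prostate and seminal vesicle genes, 1 passed the height of 3 on HF 9 and on HFT 24, and 0 on HF 35 and HFT 22. On HF 8, HF 11, HFT 23 and HFT 28 1 passed as well, and 2 on HFT 26, an array low in the uroplakins and basal keratins. Of 18 matched epididymal genes, 4 passed the height of 3 on HF 9, 1 on HFT 24 and 0 on HF 35 and HFT 22. As many or more passed on HF 8 (4), HFT 23 (4) and HFT 28 (7). The median height of the epididymal list was -0.06 on HF 9, 0.50 on HF 8, 0.49 on HFT 23 and 2.16 on HFT 28. The summed level of the epididymal list ran from 2.88 to 5.57 in HF and from 2.78 to 5.25 in HFT. Of 12 matched kidney genes, 2 passed on HF 9, 1 on HFT 24 and 0 on HF 35 and HFT 22, fewer than on HF 8 (5), HFT 23 (6) and HFT 28 (6). The summed level of the kidney list ran from -2.11 to 6.06 in HF and from -1.81 to 4.13 in HFT. Few skin genes were high: of 7 matched keratinocyte genes, Krt14 and Ivl passed on HF 35 and HFT 24, Krt14 alone on HFT 22, and the skin keratin Krt1 had heights of 0.53 on HF 35 and -0.08 on HFT 24. The part of muscle, duct or other tissue in the levels of the keratins was not tested.

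Among the uroplakin arrays, HFT 22 was the lowest for each of the 8 members. HFT 24 exceeded HFT 22 by 1.63 for Upk1a, 1.51 for Upk2 and 1.74 for Upk3a, and by 1.76 for Krt7 and 1.64 for Epcam. The step was smaller for the basal keratins, at 1.02 for Krt5, 0.75 for Krt15, 0.82 for Krt14 and 0.88 for Krt17. It was not so for every gene of a layer, with Aqp3 of the basal list at 1.26 and Upk1b at 0.65. Over all kept probes the difference between these arrays had a median of 0.01 and ran from -0.75 to 0.81 between the 5th and 95th percentiles. Upk1a, Upk2, Upk3a, Aqp3, Krt5, Krt14 and Krt17 thus lay outside that spread, Krt14 by 0.01, and Krt15 and Upk1b within it. The 2 spots of Krt7 on HFT 22 read 0.65 and 1.27, which bears on its step.

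HF 35 and HFT 24, the highest uroplakin arrays, differed in the basal keratins Krt5, Krt14 and Krt17. The uroplakins were alike or lower on HF 35, by -0.01 for Upk3a, -0.13 for Upk1a and -0.58 for Upk2. Krt5 was 1.003 higher on HF 35, Krt14 1.09 higher, Krt17 1.08 higher and Krt15 0.38 higher. The 5th to 95th percentiles of all kept probes ran from -0.65 to 0.70, with a median of 0.02. The first 3 of these basal keratins thus lay above the spread, whereas the uroplakins, Krt20 at -0.50 and Krt15 lay within it and Calcb lay below it at -1.09. Of the other basal-list genes high on these arrays, Aqp3 was 0.32 higher on HF 35, within the spread. Dapl1 had a level of -1.59 on HF 35 and -1.99 on HFT 24, a difference also within it. Each array is 1 animal, so the differences carry no test. Duplicate spots of a probe differed by a median of 0.16 for Krt5 and 0.08 for Krt15 and Krt7 over the arrays, and on HF 9 and the 3 uroplakin arrays by at most 0.084 for Krt5, 0.065 for Krt15 and 0.62 for Krt7. The uroplakins and Epcam had 1 spot each, so no such check exists for them.

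**Figure D3:**
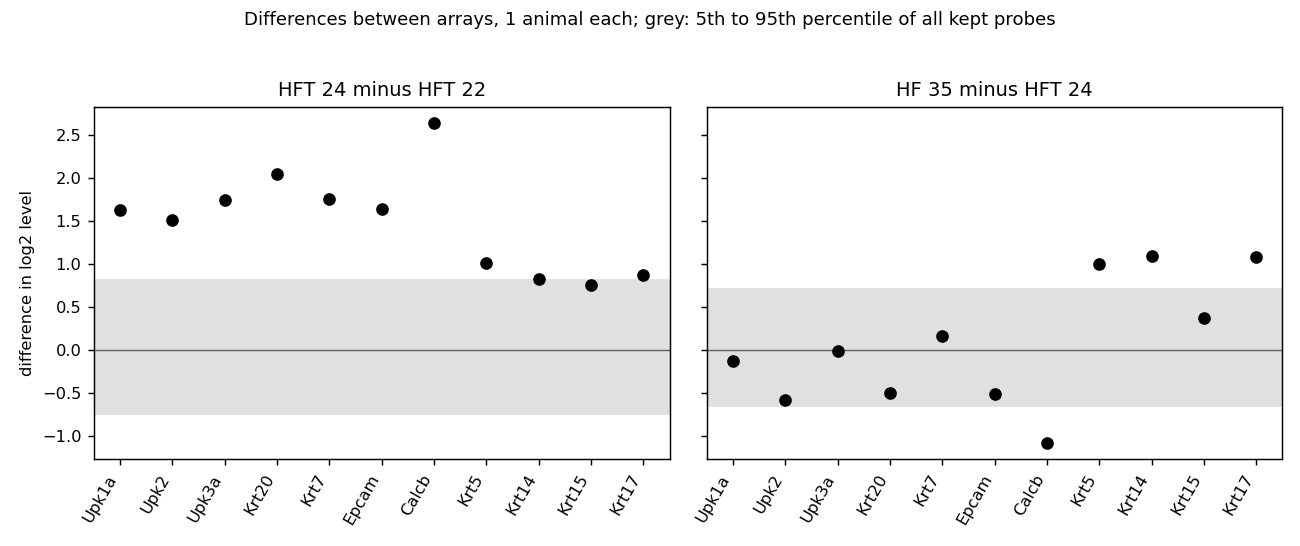
Difference in log2 level between HFT 24 and HFT 22 (left) and between HF 35 and HFT 24 (right) for 11 genes, 1 animal per array, with the 5th to 95th percentiles of all kept probes in grey. On the left the uroplakins lie at 1.51 to 1.74 and the 4 basal keratins at 0.75 to 1.02, and on the right Krt5, Krt14 and Krt17 lie at 1.003 to 1.09.

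Krt7 was high on the 3 uroplakin arrays and also varied among the rest. It stood at 2.87 on HF 35, 0.96 on HFT 22 and 2.71 on HFT 24. Outside them HF 13 was highest at -0.99, HFT 28 followed at -1.82, and HFT 27 was lowest at -3.96, all well above background. HF 9, with its high basal keratins, stood at -2.19, which is 0.02 above the median. On HF 13, where Krt7 had a height of 1.22, the mesothelial genes Gpm6a, Bnc1, Upk1b and Msln (mesothelin) had heights of 1.79, 1.71, 1.61 and 1.25. On HFT 27, where Krt7 was at -1.75, they were at -1.61, -1.96, -1.90 and -1.66. HF 8 had the lowest Msln of the 16 arrays at -2.47, with Krt7 at -0.77, and HF 10 had Msln at 1.03 with Krt7 at -0.09, so the order was not the same throughout. Of 14 matched mesothelial genes, 12 were well above background on every array, and their summed level ran from 3.86 to 6.27 in HF and from 3.56 to 6.22 in HFT, with HF 35 and HFT 24 at the top. That list shares Krt8, Krt18 and Krt19 with luminal epithelium, and Krt18 (4.85) and Upk1b (4.21) weighed most in the sum on HFT 24. By the median height of the list the order was different. It was 0.95 on HFT 22, 0.72 on HF 13, 0.50 on HF 35 and -0.10 on HFT 24. The part of mesothelium in the Krt7 level was not tested.

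**Figure D4:**
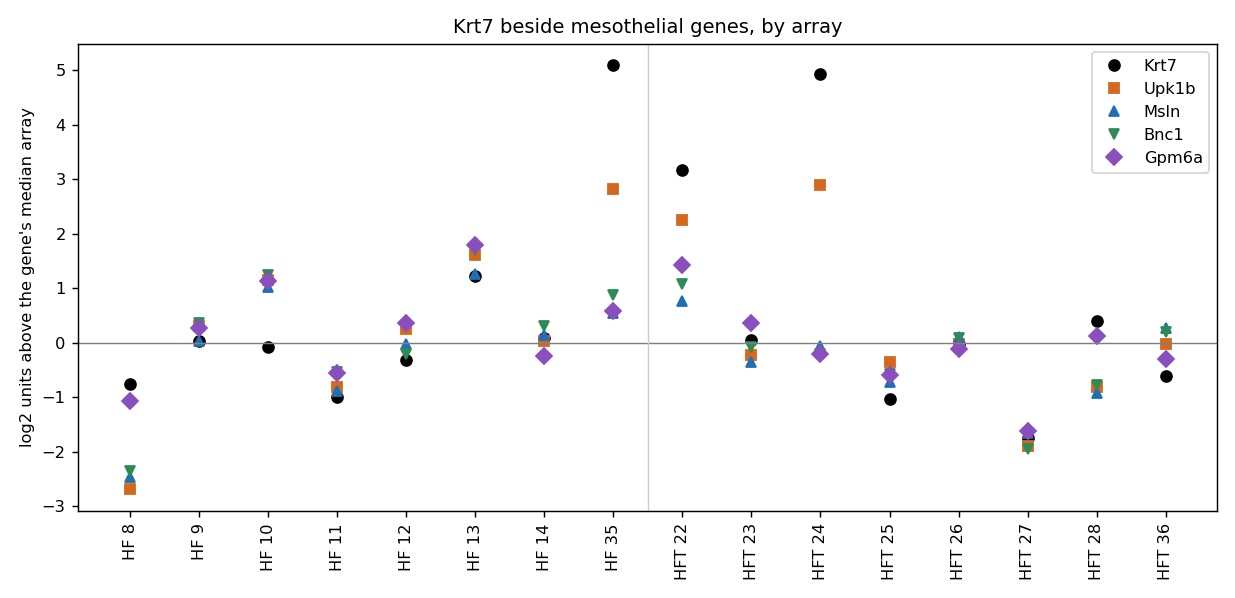
Height above the gene's own median of 16 arrays, in log2 units, of Krt7, Upk1b, Msln, Bnc1 and Gpm6a on each array, HF on the left and HFT on the right of the grey line. All 5 genes are above their median on HF 13 and below it on HFT 27, while on HF 35 and HFT 24 Krt7 reaches 5.09 and 4.93 and Msln stays under 1.

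Epcam, the adhesion molecule, was high on the widest set of arrays. In HF its lowest level was -8.91, its median -8.42 and its highest 0.85, and in HFT these were -8.78, -2.53 and 1.46. It was well above background on 8 arrays, 3 HF and 5 HFT. It stood at 0.28 on HF 35, -0.85 on HFT 22, 0.79 on HFT 24 and -1.02 on HF 9, at 0.85 on HF 8, 0.34 on HFT 23 and 1.46 on HFT 28, and at -4.22 on HFT 27. The 3 uroplakin arrays thus did not hold its highest values, and 3 other arrays stood above the lowest of them. Against the mean detection bound of the 8 dim arrays, Epcam was at least 285-fold higher on HFT 28, at least 57.6-fold higher on HFT 22 and at least 5.55-fold higher on HFT 27. On HF 8, HFT 23 and HFT 28 the epididymal gene Lcn5, a lipocalin of the duct, had heights of 9.32, 8.63 and 9.32, and it was at 2.50 on HFT 27. On HF 35, HFT 22 and HFT 24 Lcn5 lay between -1.02 and -0.20, and on HF 9 at 0.22. Of the 28 matched genes for epithelial adhesion and junctions, 15 passed the height of 3 on HF 8, 11 on HFT 23 and 16 on HFT 28, against 11 on HF 35, 12 on HFT 24, 4 on HFT 22 and 5 on HF 9. Cdh1, or E-cadherin, followed Epcam with levels of 0.44 on HF 35 and 0.99 on HFT 28.

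Calcb stood out least. Its level was -1.40 on HFT 24, -2.48 on HF 35 and -4.04 on HFT 22, and between -5.16 (HF 9) and -4.45 (HF 8) on the other arrays, all well above background. HFT 22 was 0.41 above HF 8, the highest of the other arrays. Its 2 spots read -4.03 and -4.04 on HFT 22, and -4.56 and -4.33 on HF 8. Of 22 matched genes for sensory nerve and neuropeptides, 2 passed the height of 3 on HFT 24 and 1 each on HF 35 and HFT 22. On HF 8, HFT 23 and HFT 28, where Calcb lay near its median, 1 passed as well. Uchl1, a ubiquitin hydrolase of neurons that other cells also make, was 5.94, 5.95 and 4.49 above its median on HFT 24, HF 35 and HFT 22, and 2.81 on HF 9. Dbh, the enzyme that makes noradrenaline, was 3.72 on HFT 24 and not well above background on HF 35, and Nefm, a neurofilament, 2.35 and 0.86. Calca, the paralogue of Calcb, named here after its values were seen, was 1.25 below its median on HFT 24 and not well above background on HF 35. The summed level of the nerve list ran from 4.36 to 5.38 in HF and from 4.41 to 5.22 in HFT. The part of nerve in the Calcb level was not tested.

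Likeness between members was measured as the root mean square difference of 16 levels after each gene's median was taken off, as a description over arrays that share the same high samples. Upk2 and Upk3a were the closest pair at 0.56, with Upk2 not well above background on 13 of the arrays and Upk3a on 8, so that this value rests in part on background signal, followed by Krt5 and Krt7 at 1.02 and Upk1a and Upk3a at 1.25. Krt5 and Krt15 differed by 1.33, and Epcam lay at 3.22 or more from each of the others. The measure takes in the size of the heights as well as their pattern, and Krt5 lay nearer to Krt7 than to Krt15.

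Over all kept probes, some of the genes most like the members were shared between layers. Uchl1 was among the 5 nearest of the 3 uroplakins, Krt5 and Krt15. Degs2, a sphingolipid desaturase, and Prom2, a membrane protein of epithelial protrusions, were nearest to the 3 uroplakins, at 0.80 and 0.996 from Upk1a, 2.13 and 2.17 from Upk2, and 1.90 and 1.98 from Upk3a. Their next were Tnnt2, Uchl1 and Prss22 for Upk1a, and Tnnt2, Uchl1 and Pnoc for Upk2 and Upk3a. Krt5 had Pnoc (0.52), Bnipl (0.68), Fam3d (0.70), Krt14 (0.72) and Uchl1 (0.73). Krt15 had Tnnc2 (0.92), Uchl1 (1.004), Tnnt2 (1.13), Gata3 (1.14) and Pnoc (1.24), and Krt7 had the annexin Anxa8 (0.42), Fxyd3 (0.61), Bnipl (0.79), Syt8 (0.81) and Vsig2 (0.83). Epcam had the epithelial genes Tmprss2 (1.18), Tmem30b (1.45), Cdh1 (1.60), Igsf5 (1.62) and Kdf1 (1.62). Calcb had S100a5 (0.33), Glrx (0.35), Prdm4 (0.40), S100a6 (0.41) and Osgin1 (0.42). When probes dim on most arrays were searched as well, a choice made after the data were seen, Aqp3 came nearest to Upk2 (0.62) and Upk3a (0.70), and Fat2 came nearest to Krt5 (0.39).

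The design compares the pups of GSPE-treated dams with those of vehicle-treated dams, and none of the members passed it. The limma test called 0 probes higher and 0 lower in HFT (0.0% in each direction) at a Benjamini-Hochberg adjusted p under 0.05 over all 21809 kept probes. At an unadjusted p under 0.05 it had 247 probes higher and 268 lower. Each group's values for each of the 8 members spanned both the low and the high arrays, and the groups overlapped. Upk1a had a mean of -3.15 ± 2.97 (SD, n = 8) in HF and -2.31 ± 3.61 (SD, n = 8) in HFT, a difference of 0.84 with a 95% interval from -2.43 to 4.11 (limma, adjusted p = 0.999994). Krt5 had -4.28 ± 2.08 (SD, n = 8) in HF and -4.46 ± 2.04 (SD, n = 8) in HFT, a difference of -0.19 with an interval from -2.22 to 1.85. The intervals are wide, and 1 HF array and 2 HFT arrays lay far above the rest.

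The other members gave differences of the same order. Upk3a differed by 0.76 (interval -3.70 to 5.22), Krt15 by -0.45 (-3.48 to 2.57) and Krt7 by 0.11 (-1.98 to 2.20). Epcam differed by 1.83 (-2.64 to 6.29) and Calcb by 0.29 (-0.71 to 1.28). The adjusted p from limma was 0.999994 for each of the 7 tested members. Upk2 had means of -7.12 in HF and -5.82 in HFT and was not tested, since the filter dropped it. Without the 3 uroplakin arrays the difference turned to -0.045 for Upk1a, -0.54 for Upk3a, the gene that chose those arrays, and -0.38 for Krt7. Leaving out HFT 24 alone moved Upk1a to -0.10, Upk3a to -0.51, Krt7 to -0.50 and Calcb to -0.11. Leaving out HF 35 alone moved Krt5 to 0.47 and Krt15 to 0.30.

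The arrays lay on 4 slides of 2 HF and 2 HFT arrays, and the direction differed between slides. For Upk3a HFT minus HF was 4.14 on slide 1, 5.28 on slide 2, -0.88 on slide 3 and -5.49 on slide 4, and slides 1, 2 and 4 held 1 uroplakin array each. For Krt15 it was -0.34, 3.04, -0.20 and -4.31, with HF 9 and HFT 22 together on slide 1. HF arrays took positions 1 and 2 of each slide and HFT arrays positions 3 and 4, so position and group cannot be told apart.

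**Figure D5:**
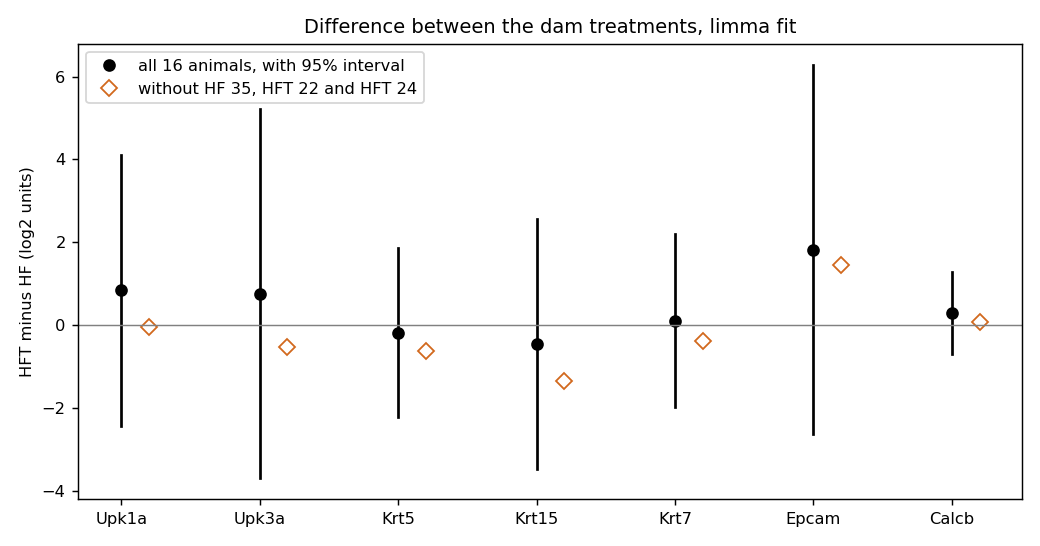
HFT minus HF in log2 units for the 7 members that the filter kept, from limma, with all 16 animals (points, with 95% intervals) and without HF 35, HFT 22 and HFT 24 (open diamonds). Every interval spans 0, and the signs of Upk1a, Upk3a and Krt7 turn without those 3 animals.

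The gene lists gave no call in that comparison. Over all kept probes 56.2% were lower in HFT and the median difference was -0.02. The 11 kept luminal genes had 7 higher and 4 lower in HFT with a median difference of 0.17, which ran from -0.03 without HFT 24 to 0.42 without HF 35. The 12 kept basal genes had 5 higher and 7 lower with a median of -0.12, which ran from -0.25 without HFT 22 to -0.03 without HF 35. Of 22 kept adhesion and junction genes 18 were higher and 4 lower, with a median of 0.48. That median was 0.12 without HFT 28, 0.14 without HFT 24 and 0.84 without HF 8. On HF 8, HF 9 and HF 35, 24 or 25 of the 28 matched genes were well above background. On HFT 22, HFT 23, HFT 24 and HFT 28 it was 22 to 25, and on the other arrays 13 to 17. A gene dim on those other arrays could pass the filter of 4 arrays only through HFT. Of the 22 kept genes 11 were well above background on every array, and the part of the filter in this count was not tested. Of 11 kept smooth muscle genes 0 were higher and 11 lower, with a median of -0.57, and without HF 9 alone 3 were higher and 8 lower, with a median of -0.09.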

How the data were processed

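The spot intensities were deposited as output of Agilent Feature Extraction 10.7.3.1, per the file headers, and were not normalized between arrays. Background marks of 0 or 1 (score) were set by the same software, per the file headers. A log2 value per spot was deposited as well. No source used here gives its normalization. Its column medians were 7.33 to 7.36, each column correlated with its own array at 0.998 or more, and it served as an alternative.

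From the processed intensity, log2 was taken and each array's 75th percentile subtracted. Spots marked as outliers were left out, and spots of a probe were averaged, over 30367 probes, of which 23 with a missing value were dropped. Accessions were matched without version to RefSeq rat genes (GRCr8), which named 18005 probes and left 12362 unnamed. The array design is labelled rn4, so no probe coordinates are given. Kept probes (21809) were those well above background on 4 or more arrays of HF or of HFT. HFT was compared with HF in limma 3.58.1 (R 4.3.3) with no covariate, on files read by the R package data.table in its version 1.17.8. Summaries used Python 3.11.15. The fit was tested on simulated data.

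The members, the gene lists and the alternatives were chosen with earlier results of these data known. For likeness, the 5 nearest named genes were named, and from each list up to 4 genes with the largest height on the arrays described. Alternatives were the correction and scaling, the filter, the slide as a block, the height threshold and the arrays left out. Normexp correction (offset 50) used the median spot signal. The number of arrays limits the precision. 1 gene that these rules name is not reported here.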

Additional observations from a re-analysis of the deposited data

Results flagged for a closer look

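Within each group of 8, the gap between the highest or lowest array and its neighbour was divided by the group's range and set against Dixon's critical value of 0.526. The members were chosen for such levels, so these marks restate that choice and describe the values, and support nothing, and chance alone marks about 1 in 20 groups of unchosen values. Of 32 ends 6 were marked. HF 35 stood far above the next HF array for Upk1a (4.17), Upk2 (2.72), Upk3a (4.69), Krt7 (2.87) and Calcb (-2.48). HFT 24 stood far above the next HFT array for Calcb (-1.40).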

How the results depend on the processing

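No probe was called under any alternative, the smallest adjusted p with 1 animal left out being 0.136 (limma). Without the arrays with Upk3a above 0, Upk1a (-0.045), Upk3a (-0.54) and Krt7 (-0.38) reversed. With 1 animal left out, HFT minus HF ranged from -0.10 to 1.88 for Upk1a, -0.51 to 2.15 for Upk3a, -0.72 to 0.47 for Krt5, -1.22 to 0.30 for Krt15, -0.50 to 0.76 for Krt7, 1.11 to 2.71 for Epcam and -0.11 to 0.57 for Calcb. Arrays over the height of 3 fell to 1 for Krt5 with normexp, and for Calcb to 0 with normexp, to 0 in the authors' table and to 0 at a height of 4, and rose to 2 at a height of 2; the causes were not tested. The other settings kept the direction of each member. The lowest-mean probe could not be tried, as each member had 1 probe. No paired analysis was possible because the groups share no replicate numbers. Dim signal limits Upk2 and Epcam to bounds. Leaving out each array for the gene lists was chosen after the data were seen.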
